A study of Bos taurus with 8 samples.

Results

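Laminins, integrins and the other proteins of the basement membrane and its cell contacts were read in granulosa cells, the steroidogenic lining of the ovarian follicle, of atretic and plateau dominant follicles of Holstein cattle. The members were the array probes whose platform gene symbol named a laminin chain, an alpha or beta integrin, nidogen 1 or 2, perlecan (HSPG2) or agrin (AGRN). Probes of dystroglycan (DAG1), ILK, PTK2, talin 1 or 2 and vinculin (VCL) were also members. Of the alpha integrins, only symbols with a digit or V after ITGA were matched. Those with other letters, such as ITGAL and ITGAM, were not read. The rule found 49 probes of 43 genes among 43794 gene probes of 15216 symbols. Of these, 40 probes of 37 genes reached a mean log2 intensity of 7 and were tested, among 34022 probes of 13068 genes. The symbol pattern also took in 4 genes, ITGB1BP1, ITGB1BP2, ITGB1BP3 and ITGB3BP, that are named after integrins and are not integrins. LAMA2, LAMA3 and LAMB4 were not analysed here.

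In the follicle wall, a basement membrane separates the granulosa cells from the theca. Laminins are trimers of an alpha, a beta and a gamma chain that polymerise into a sheet, nidogens and perlecan tie that sheet to a network of type IV collagen, and agrin binds laminin. Cells hold on to it through integrins, which are dimers of an alpha and a beta subunit, and through dystroglycan. Talin, vinculin, integrin-linked kinase and focal adhesion kinase connect integrins to actin and to signalling inside the cell.

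Atretic follicles are regressing ones, and in plateau follicles growth has come to a near halt. The study scraped the cells off the wall of single follicles from slaughterhouse ovaries, ranked the follicles by flow cytometry of cellular DNA, and amplified the RNA. On each of 8 two-colour arrays, an atretic follicle was hybridised against a plateau follicle, with the dyes exchanged between slides 205 and 206. Arrays of equal Area number were averaged, which left 4 pairs of follicles, and all ratios below are log2 of atretic over plateau, given as mean ± SD of the 4 pairs. The estrous stage and reproductive status of the cows were not known, and the sources do not say whether the follicles came from different cows, so the p-values measure only the spread between these samples.

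Median spot intensities were 162 to 283 in Cy5 and 205 to 374 in Cy3, over local backgrounds of 39 to 71 and 21 to 31, and the number of arrays limits the precision. Levels are quantile-normalised log2 intensities, and the 95th percentile of the negative controls lay between 7.02 and 7.33, so a level near 7 carries little signal. The plateau follicle of pair 3 stood apart from the others. The mean level of the 9 fibroblast and stroma markers was 8.52 to 9.19 in the 4 atretic follicles, against 12.30 in the plateau follicle of pair 3 and 8.24 to 9.24 in the other 3 plateau follicles. The mean level of the 11 granulosa markers was 12.12, 11.29, 11.63 and 12.07 in the atretic follicles and 12.26, 10.51, 9.75 and 12.41 in the plateau follicles of pairs 1 to 4. Among them, aromatase (CYP19A1) had levels of 15.87, 8.97, 12.11 and 15.10 in the atretic follicles and 14.92, 7.20, 7.52 and 15.77 in the plateau follicles, close to the negative controls in the plateau follicles of pairs 2 and 3, where CDH2 (14.31 and 15.34) and GATM (12.45 and 11.20) of the same list were higher than in the other plateau follicles. The mean of the 5 theca markers was 10.03 in the atretic follicle of pair 1, 8.94 to 9.21 in the other atretic follicles and 9.12 to 9.74 in the plateau follicles. In that atretic follicle CYP17A1 (9.42) and INSL3 (8.51) had their highest levels of the 8 follicles, and STAR (14.18) its highest of the atretic ones. PTCH1 (11.55) lay within the range of the others, and HPGD (6.48), near the negative controls, had its lowest level. The paper removed an atretic sample from its PCR comparison because high CYP17A1 pointed to theca cells. By the paper's description, the PCR groups kept all hybridised samples plus additional ones, so the removed sample was not among these follicles. In the levels of all tested probes, follicles that shared an array resembled each other (r = 0.18 to 0.54 over 4 pairs, after each group's mean was removed), against -0.47 to 0.24 for the 12 combinations that did not share one. Whether that comes from the array or from the follicles was not tested, so differences within an array are the measure used below.

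At the study's threshold, a fold of 1.5 with an unadjusted p of 0.05, 3 of 40 member probes passed (7.5%), against 4.06% of all tested probes. LAMB1 was higher in atretic follicles, and HSPG2 and ITGA7 were lower, where the threshold was passed upwards by 2.1% and downwards by 1.96% of all probes. Read by the brightest probe of each gene, the same 3 of 37 member genes passed, 1 higher and 2 lower, against 5.66% of all genes, 2.79% higher and 2.88% lower. The 4 pairs had 1 sign in 6 of 40 member probes (15%), against 15.6% of all probes. After Benjamini-Hochberg adjustment in limma, 0 of 40 member probes and 0 of 34022 probes passed 0.05, while 4 member probes and 2547 of all probes (7.49%) had an unadjusted p under 0.05. The median ratio of the members was 0.00, the same as that of all tested probes. RNA came from whole scrapings, so fewer cells of a type and less RNA per cell cannot be told apart. The median SD over pairs was 0.45 for member probes and 0.32 for all tested probes, which were dimmer (median log2 intensity 7.67, against 8.27 for members). By the brightest probe of each gene, it was 0.42 for member genes and 0.39 for all genes.

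**Figure D1:**
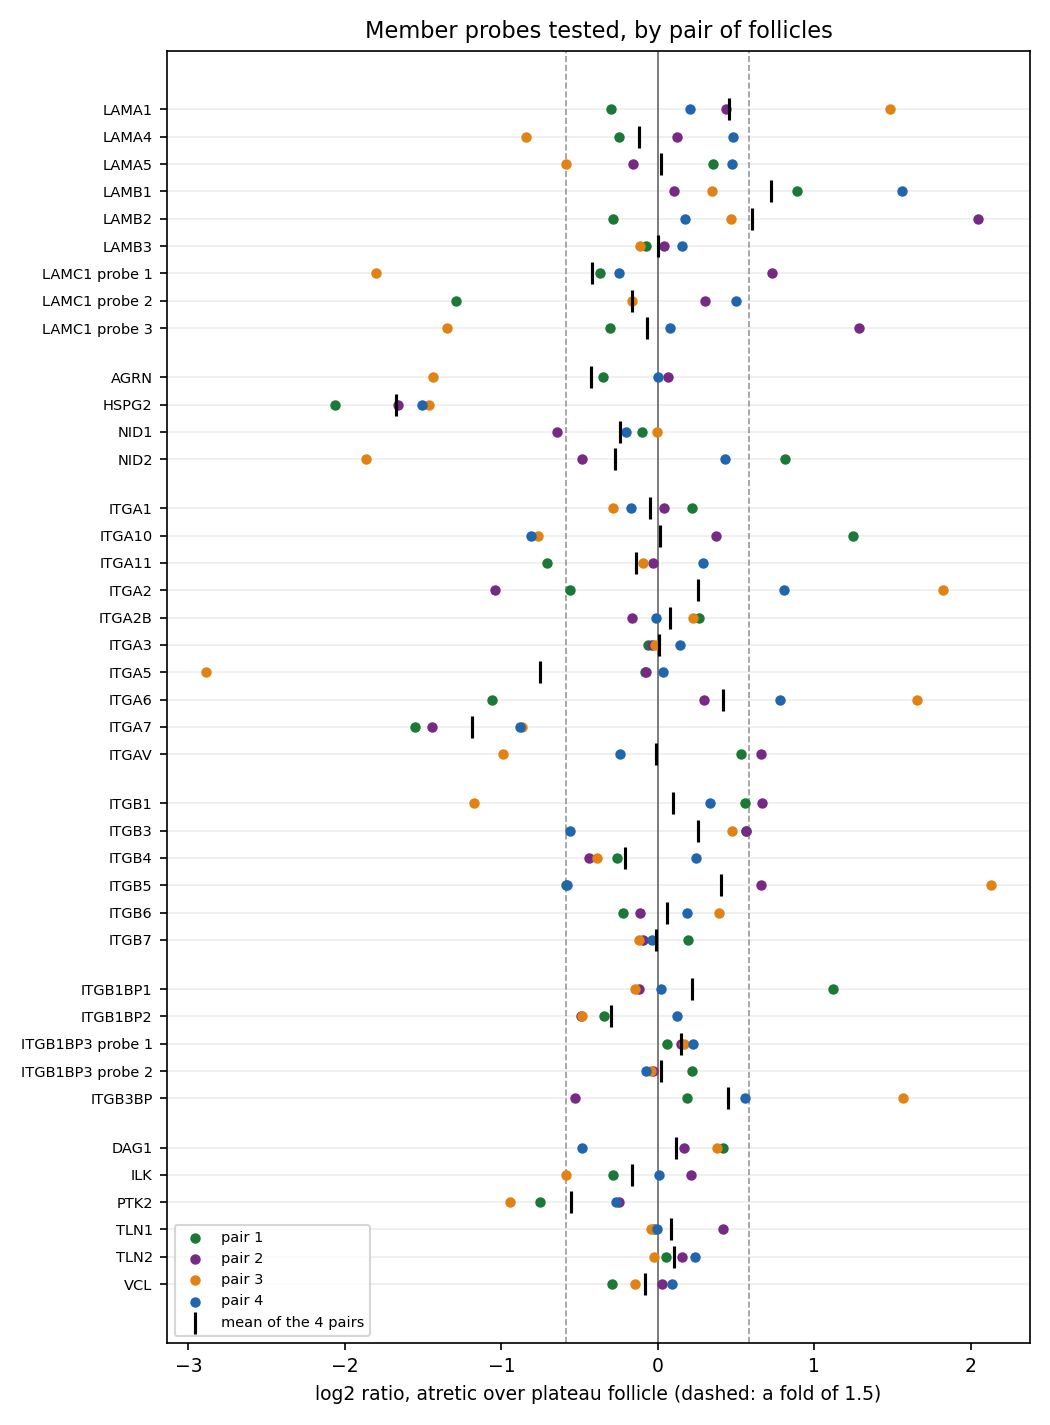
Log2 ratio of atretic over plateau follicles (x axis) of the 40 member probes tested (rows, grouped by role), with 1 point per pair of follicles and a bar at the mean of the 4 pairs. HSPG2 and ITGA7 lie left of 0 in all 4 pairs, and most other rows have points on both sides of 0, with the widest spread in pair 3.

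Of the laminin chains, LAMB1 alone passed. LAMB1, the beta1 chain, is part of the common laminin trimers. Its level was 9.41, 11.23, 11.64 and 10.22 in the atretic follicles of pairs 1 to 4, against 8.51, 11.13, 11.29 and 8.66 in the plateau follicles. The atretic follicle was the higher one in every pair, but the groups overlapped, because pairs 2 and 3 had high levels in both follicles. The ratios were 0.89, 0.10, 0.35 and 1.56, a mean of 0.73 ± 0.65 (1.65-fold higher in atretic follicles; adjusted p = 0.624 in limma). LAMB1 was above 0 on 7 of 8 arrays. It fell short of the threshold on slide 206 alone (0.61), without pair 1 (0.67) and without pair 4 (0.45), and was 0.85 without pair 3.

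The other laminin chains did not pass. LAMA1, the alpha1 chain, had levels of 15.50, 15.38, 15.53 and 15.61 in atretic follicles, against 15.80, 14.94, 14.04 and 15.41 in plateau follicles, with a mean ratio of 0.46 ± 0.75. The 4 atretic follicles lay close together and the plateau follicle of pair 3 was low. LAMB2, the beta2 chain, gave ratios of -0.28, 2.04, 0.47 and 0.17, a mean of 0.60 ± 1.01, in which the plateau follicle of pair 2 was low at 9.46 and the other 7 follicles lay at 10.33 to 12.12. LAMC1, the gamma1 chain, was read by 3 probes, with means of -0.42, -0.17 and -0.07. Those probes differed within pairs: in pair 1 their ratios were -0.37, -1.29 and -0.30, and in pair 3 -1.80, -0.17 and -1.34. LAMA4, LAMA5 and LAMB3 had mean ratios of -0.12, 0.02 and 0.00. LAMC3 was under the intensity minimum.

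Among the other basement membrane members, HSPG2 had the lowest mean ratio of the 40. HSPG2 encodes perlecan, the large heparan sulfate proteoglycan of basement membranes. Its level was 9.21, 8.43, 11.52 and 10.45 in atretic follicles, against 11.27, 10.09, 12.98 and 11.96 in plateau follicles. The plateau follicle was the higher one in every pair, and the groups overlapped because pairs differed in level. The ratios were -2.06, -1.66, -1.46 and -1.51, a mean of -1.67 ± 0.27, which is 3.19-fold lower in atretic follicles (adjusted p = 0.167 in limma). The slides gave -1.73 and -1.62 for 205 and 206, and leaving out pair 3 gave -1.74. With the 8 arrays fitted and the pair as a replicate block, its adjusted p in limma was 0.0013, in a fit where 556 of 34022 probes (1.63%) passed 0.05. That fit takes the arrays of a pair as replicates at a correlation shared by all probes (0.436). These arrays hold the same follicles, so this p can understate the spread between follicles.

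ITGA7, the alpha7 subunit, which pairs with beta1 and binds laminin, also was lower. Its level was 9.61, 8.96, 11.50 and 11.07 in atretic follicles, against 11.17, 10.40, 12.37 and 11.94 in plateau follicles. As with HSPG2, the plateau follicle was the higher of each pair and the groups overlapped. The ratios were -1.55, -1.44, -0.87 and -0.88, a mean of -1.19 ± 0.36, or 2.27-fold lower (adjusted p = 0.167 in limma, and 0.00473 with the pair as a replicate block). The p of the block fit has the limit given for HSPG2. Leaving out pair 3 gave -1.29.

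**Figure D2:**
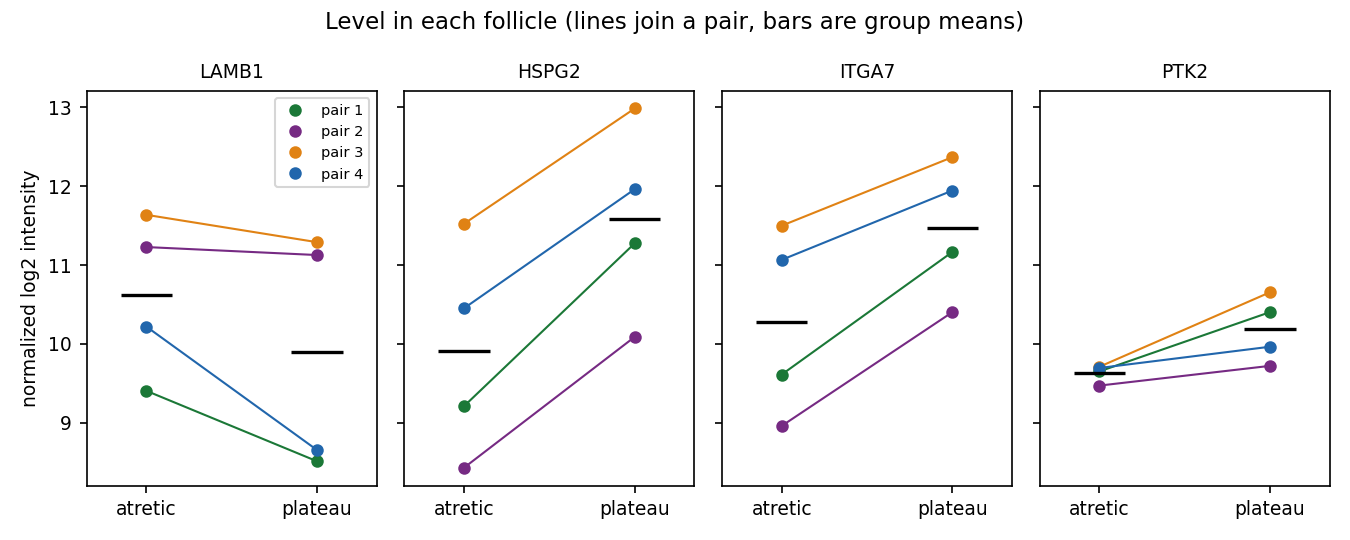
Quantile-normalised log2 intensity (y axis) of LAMB1, HSPG2, ITGA7 and PTK2 in the 4 atretic follicles (left) and the 4 plateau follicles (right), with a line joining the follicles of a pair and a bar at each group mean. All lines of HSPG2, ITGA7 and PTK2 are lower at the atretic end, and all lines of LAMB1 are higher there.

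HSPG2 and ITGA7 shared their pattern over follicles with many other probes. A profile was taken as the mean of 70 bright probes that correlated above 0.95 with 1 of them, over the levels of the 8 follicles on both slides. The profile had levels of 11.1, 10.3, 12.9 and 12.1 in atretic follicles and 13.0, 12.4, 13.9 and 13.5 in plateau follicles. HSPG2 correlated with it at 0.97 and ITGA7 at 0.95, a description over levels that share arrays. Of 34022 tested probes, 158 (0.464%) correlated above 0.9, and 156 of those were among the 667 probes lower in atretic follicles, 23.4% of them. The profile itself was lower in the atretic follicle of each pair, so a probe close to it is lower too, largely by construction. All 158 had mean ratios below 0. The 2 members that were lower are both among the 158. The 8 leukocyte markers tested also had mean ratios below 0, with a median of -0.41 and 0 past the threshold. Their mean level was 7.50 to 8.28 in atretic follicles and 7.25 to 9.41 in plateau follicles, and their correlations with the profile ran from -0.12 for AIF1 to 0.79 for PTPRC. The 7 smooth muscle and pericyte markers tested had a median ratio of 0.01, and the 6 endothelium markers tested had -0.08, with 0 past the threshold in either list. The part of this profile, or of leukocyte, stroma, smooth muscle or endothelium RNA, in the values of HSPG2 and ITGA7 was not tested.

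NID1, NID2 and AGRN did not pass. Nidogen 1 (NID1) had levels of 7.48, 7.17, 7.57 and 7.49 in atretic follicles and 7.59, 7.81, 7.58 and 7.69 in plateau follicles, groups that did not overlap but differed by only -0.24 ± 0.28, at levels near the negative controls. Non-overlapping levels were found for 2 of 40 member probes, NID1 and PTK2, and for 2.26% of all probes. On slide 205 alone the NID1 ratio was 0.18. Nidogen 2 (NID2) averaged -0.28 ± 1.19, and agrin averaged -0.43 ± 0.70 with -1.44 in pair 3.

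The other alpha integrins did not pass either. ITGA5, the fibronectin receptor subunit, had levels of 7.41, 7.03, 7.12 and 6.99 in atretic follicles and 7.49, 7.10, 10.00 and 6.96 in plateau follicles. The plateau follicle of pair 3 stood out, the other 7 lay close to the negative controls, and the ratio was -2.88 in that pair and between -0.08 and 0.03 in the others. ITGA6, a laminin receptor subunit, had ratios of -1.06, 0.29, 1.65 and 0.78, a mean of 0.42 ± 1.13. The mean was 0.91 without pair 1, which passed the threshold, 0.46 without pair 2, 0.00 without pair 3 and 0.30 without pair 4. ITGA2, a collagen and laminin receptor subunit, spread from -1.04 to 1.82, and ITGAV and ITGA10 averaged -0.01 and 0.01 over pairs of opposite sign. ITGA1, ITGA11, ITGA2B and ITGA3 had mean ratios of -0.05, -0.14, 0.08 and 0.01. ITGA4, ITGA8 and ITGA9 were under the intensity minimum.

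None of the 6 beta integrins tested passed. ITGB1, the partner of most alpha subunits above, had ratios of 0.56, 0.66, -1.17 and 0.34. ITGB5, which pairs with alphaV, had levels of 13.47, 13.06, 12.44 and 12.48 in atretic follicles and 14.06, 12.40, 10.32 and 13.07 in plateau follicles, a mean ratio of 0.40 ± 1.29. The plateau follicles of pairs 1 and 3 held its highest and lowest levels. ITGB3 was 0.56, 0.56, 0.47 and -0.56, and ITGB4, the hemidesmosome subunit that pairs with alpha6, averaged -0.21 ± 0.31. On slide 205 alone, ITGB3 was -0.02 and ITGB4 was 0.10. Of the 40 member probes, 18 were not above the 95th percentile of the negative controls in every channel, and 6 were above it in 8 channels or fewer: LAMA4, ITGA1, ITGA2B, ITGA5, ITGB7 and the dimmer ITGB1BP3 probe. ITGB6 and ITGB7 had mean ratios of 0.06 and -0.01, and ITGB2 and ITGB8 were under the intensity minimum.

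The genes named after integrins did not pass. ITGB1BP1, whose product binds the beta1 tail, was higher in the atretic follicle of pair 1 (1.12) and between -0.14 and 0.02 in the others. ITGB1BP2 averaged -0.30 ± 0.29. The brighter ITGB1BP3 probe, whose current symbol is NMRK2, had ratios of 0.06, 0.15, 0.17 and 0.22, and -0.16 on slide 205 alone. ITGB3BP, a centromere protein also called CENPR, averaged 0.45 ± 0.87 by the 1 probe of 4 that reached the intensity minimum.

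Among dystroglycan and the adaptors, PTK2 stood closest to the threshold. PTK2 encodes focal adhesion kinase. Its level was 9.65, 9.47, 9.71 and 9.70 in atretic follicles, against 10.40, 9.72, 10.65 and 9.96 in plateau follicles, without overlap. The mean ratio was -0.55 ± 0.35, short of the fold of 1.5 (adjusted p = 0.537 in limma). It passed on slide 206 alone (-0.77), without pair 2 (-0.65) and without pair 4 (-0.65), and did not pass without pair 1 (-0.49), without pair 3 (-0.42) or on slide 205 alone (-0.33). With an intensity trend and robust variance in limma, its unadjusted p was 0.0624 and its adjusted p was 0.715. VCL, vinculin, differed by 0.29 or less within each pair, with levels of 13.20, 14.62, 14.16 and 13.66 in atretic and 13.50, 14.60, 14.31 and 13.57 in plateau follicles. TLN1, TLN2, DAG1 and ILK had mean ratios of 0.09, 0.10, 0.12 and -0.16.

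**Figure D3:**
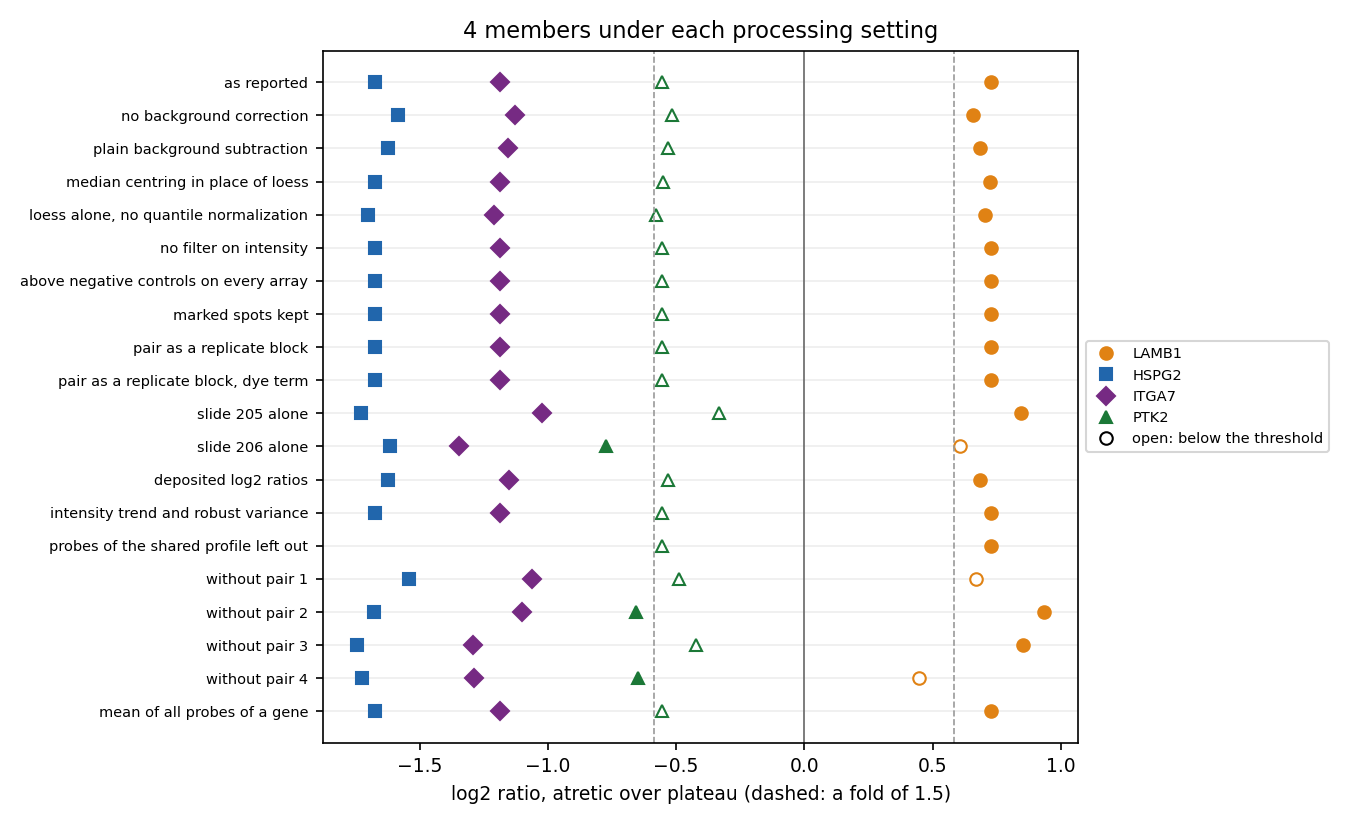
Log2 ratio of atretic over plateau (x axis) of LAMB1, HSPG2, ITGA7 and PTK2 under each processing setting (rows), with filled symbols past the threshold and open ones below it. HSPG2 and ITGA7 are filled in each row where they were tested, LAMB1 is open in 3 rows, and PTK2 is filled in 3.

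Pair 3 held more of the large differences than any other pair. In it, 12 of 40 member probes (30%) differed by more than 1 on the log2 scale, against 13.1% of all tested probes. In pairs 1, 2 and 4 it was 6, 5 and 2 of 40 (15%, 12.5% and 5%), against 4.73%, 6.05% and 5.38% of all probes. By the brightest probe of each gene, it was 29.7% of member genes in pair 3, against 18.6% of all genes. In pairs 1, 2 and 4 it was 13.5%, 10.8% and 5.41% of member genes, against 6.32%, 8.09% and 7.06%. Of the 12 probes in pair 3, 5 were higher in the atretic follicle and 7 were lower. Higher were LAMA1 (1.49), ITGA2 (1.82), ITGA6 (1.65), ITGB5 (2.13) and ITGB3BP (1.57). Lower were LAMC1 by 2 probes, AGRN (-1.44), HSPG2 (-1.46), NID2 (-1.86), ITGA5 (-2.88) and ITGB1 (-1.17). In the same pair, the 11 granulosa markers differed by a mean of 1.88 and the 9 stroma markers by -3.63, and 0 markers of either list passed the threshold over the 4 pairs. The plateau follicle of pair 3 had the highest level of the 8 follicles for 5 of the 12 probes, the lowest for 4 and neither for 3. The part of these marker differences in the members' values was not tested.

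**Figure D4:**
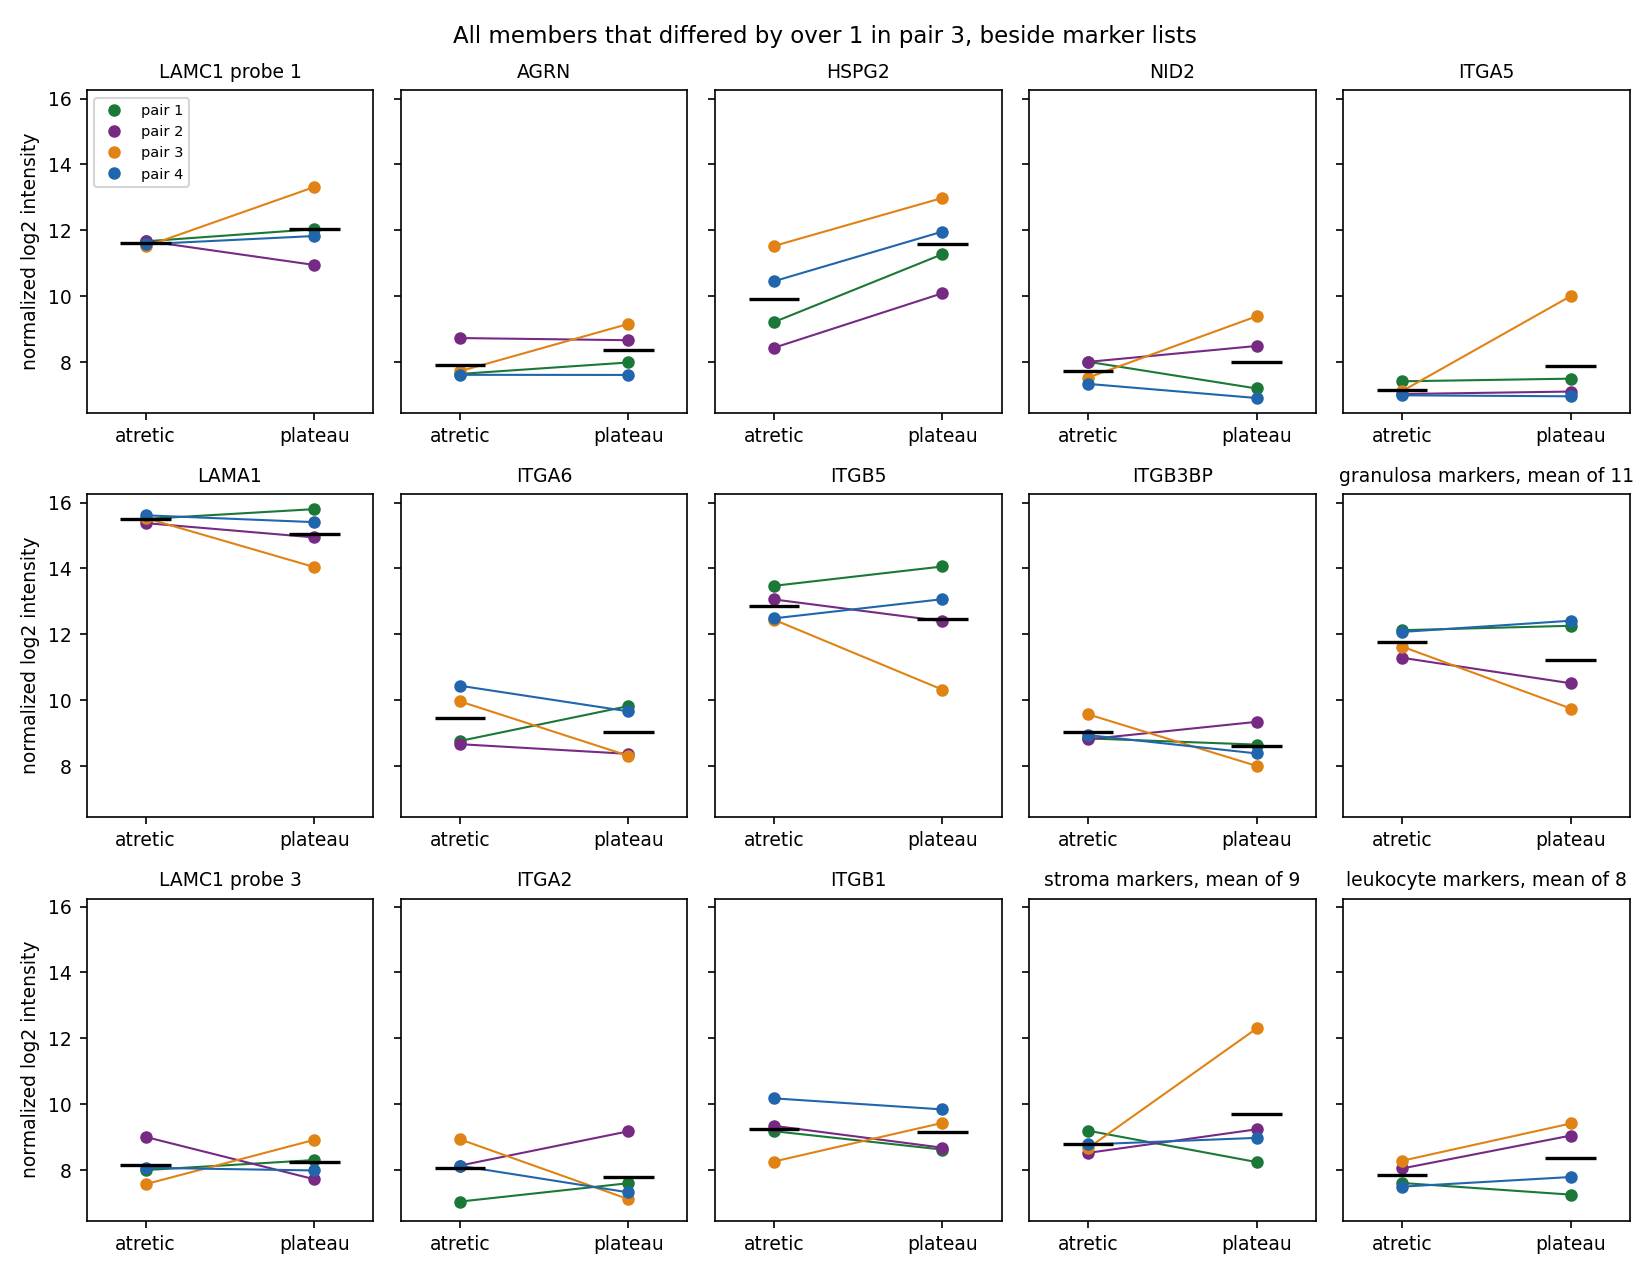
Quantile-normalised log2 intensity (y axis) in the 4 atretic (left) and 4 plateau follicles (right) of all 12 member probes that differed by more than 1 in pair 3 and of the means of 11 granulosa, 9 stroma and 8 leukocyte markers, with lines joining pairs and bars at group means. The plateau follicle of pair 3 is the highest point for 5 probes (top row), the lowest for 4 (middle row) and neither for LAMC1 probe 3, ITGA2 and ITGB1 (bottom row).

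Further genes of the same structures were read from lists, by the brightest probe of each gene. Of all genes read in this way, 5.66% passed the threshold, 2.79% higher and 2.88% lower, so 1 gene in a list is near that share. Of 18 further basement membrane genes tested of 23 listed, 1 was higher in atretic follicles, 0 were lower, and the median ratio was -0.06. The higher one, COL4A5, a type IV collagen chain, had ratios of 0.59, 0.39, 2.01 and 0.99, a mean of 1.00 ± 0.72 (adjusted p = 0.528 in limma), and its other 2 probes gave 0.53 and 0.38. COL4A1 and COL4A2, the main type IV collagen chains, averaged 0.26 and -0.08. Of 23 focal adhesion genes tested of 27 listed, FYN, a SRC-family kinase, was higher, at 0.23, 1.01, 0.59 and 1.02, a mean of 0.71 ± 0.38 (adjusted p = 0.411 in limma), 0 were lower, and the median was -0.13. Of 17 integrin and dystroglycan partners tested of 21 listed, 0 passed, and the median was -0.09. Fibronectin (FN1), the ligand of ITGA5 and ITGB1, had ratios of 2.67, 0.97, -6.57 and 0.46.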

How the data were processed

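The authors deposited, for each spot and channel, a median intensity and a local background from Array-Pro Analyzer 6.4, not yet normalised. The authors' deposited log2 ratios of Cy5 over Cy3, made in FlexArray 1.6.1 with background subtraction, loess and quantile normalisation, served as an alternative. Here, intensities were corrected with normexp (offset 50), then loess (span 0.3) and quantile normalised in limma 3.58.1 (R 4.3.3; statmod 1.5.0). Ratios were turned to atretic over plateau. To check the pairing, each probe's mean over the arrays of a slide was first removed, which pushes correlations of unequal arrays below 0. Arrays of equal Area number then correlated at 0.76 to 0.87 between slides, and unequal ones at -0.49 to -0.03. The ratios of arrays of equal Area number were averaged, which cancels dye effects. Slide and dye orientation cannot be told apart. Probes that reached a mean log2 intensity of 7 were fitted with lmFit and eBayes and adjusted by Benjamini-Hochberg over all of them. Tests and counts are by probe; for counts by gene, the brightest probe was taken. Symbols came from the platform annotation, and 22004 of 43794 gene probes had none. Named genes were members past the threshold, those of smallest p in each role, and those of equal sign in 4 pairs; the others are given for completeness. Members and lists were chosen with earlier results of these data known. The steps were tested on simulated data. Alternatives changed background, normalisation, filter, marked spots, replicate block, slide, variance model, fold, probe of a gene, shared profile and each pair left out.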

Additional observations from a re-analysis of the deposited data

Results flagged for a closer look

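Of 40 member probes examined, 5 had 1 pair that lay far from the other 3 by Dixon's criterion, which chance alone meets in about 1 of 20 groups. The share of all tested probes that meet it was not counted, so the 5 cannot be read as particular to the members. ITGA5 had a ratio of -2.885 in pair 3. ITGB3 had -0.56 in pair 4. ITGB1BP1 had 1.12 in pair 1. The dimmer probe of ITGB1BP3 had 0.22 in pair 1. TLN1 had 0.42 in pair 2.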

How the results depend on the processing

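HSPG2 and ITGA7 kept their direction and their side of the threshold in all 18 alternatives in which they were tested, with ratios of -1.74 to -1.54 and -1.35 to -1.02. Plain background subtraction and the deposited ratios gave nearly the same values as each other. With the pair as a replicate block, 2 member probes passed an adjusted p of 0.05, and 2 with a dye term added, HSPG2 and ITGA7 in both, against 1.63% and 1.31% of all probes, where 0 members and 0 probes passed in the other fits; these fits take the 8 arrays as correlated replicates (consensus correlation 0.436 and 0.664). Their p-values can understate the spread between follicles, because the arrays of a pair hold the same follicles. The block changed no other call of a member. Higher members numbered 2 on slide 205 alone (4.56% of all probes were higher) and 0 on slide 206 alone (3.59%), and lower ones 4 on slide 206 alone (4.21%). At a fold of 2, 0 were higher, and the share of all probes was not counted at that fold. Leaving out the shared-profile probes removes both lower members by construction, so that 0 were lower and 1 member probe and 1 gene passed (3.62% of all probes). With 1 pair left out, 3 to 4 member probes passed, against 3.76% to 5.3% of all probes. Of the members, 0 to 1 were higher (1.72% to 3.02% of all probes) and 2 to 3 lower (2.04% to 2.35%). In these fits 0 members passed an adjusted p of 0.05 in limma, and the member median was -0.05 to 0.03. Reversed on slide 205 alone were NID1 (0.18), ITGB4 (0.10), ITGB3 (-0.022) and ITGB1BP3 (-0.16); the cause was not tested. Probes near the negative controls carry little signal, which limits 18 of the 40 tested member probes, and of the 9 dim probes 0 levels were above the negative controls on both arrays.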
